A study of Schizosaccharomyces pombe with 2 samples.

Results

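Of 1514 distinct introns in the authors' tables of annotated and added introns, 91 belonged to non-coding or antisense RNAs of fission yeast (*Schizosaccharomyces pombe*). They comprised 58 added introns that the authors classed as antisense, 22 added introns classed as ncRNA, and 11 annotated introns of RNAs whose name begins with SPNCRNA. The introns of SPNCRNA.659 and SPNCRNA.1038, which host small nucleolar RNAs, were set aside, and no line was repeated among the 91. All RNA came from strain 972 h- with the genotype delta-dbr1, and no sample with dbr1 was analysed here. Total RNA of 41 growth and treatment conditions was pooled and run on 2-dimensional acrylamide gels, and the arc of circular RNA was cut out and sequenced. There were 2 libraries, 1 from a short gel run with 15% acrylamide in the second gel and 1 from a long run with 20%, and the tables used here carry the short run's name. Because there was 1 library and no replicate, introns were described and not tested, and a low count from few conditions cannot be told apart from a low count in all of them.

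Splicing releases an intron as a lariat, a circle closed where the intron's first base is joined to the branch-point adenosine, and Dbr1 is the enzyme that opens that circle. Cells without it keep excised introns as circles, so circular RNA can show introns of RNAs that are rare or quickly destroyed. Much of the fission yeast genome is transcribed into long non-coding RNAs, many of them antisense to protein-coding genes and kept low by nuclear RNA decay. The tables give every intron a strand, but no source used here says if the library or the counting kept strand, so reads of overlapping RNAs on both strands cannot be told apart. All 91 introns began with GT and ended with AG on the strand the tables give, read in the NCBI RefSeq assembly ASM294v3, and each sequence occurred once in that genome. The authors' build is named in no source used here, but all 1292 distinct annotated introns also ran from GT to AG at their positions in ASM294v3.

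The introns with most reads in each class are shown first, because they hold most of the reads described below. Capitals mark the GT and AG ends and, where there is one, the copy nearest the 3′ end of the branch-point motif of this yeast, searched on the intron's own strand as CTNAC or its variant CTNAT, where N was A or G. Sequences run 5′ to 3′ on the intron's own strand and come from ASM294v3. Introns that touch an annotated untranslated region are shown by their last 30 bases.

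SPCC550.12 antisense (3:1213612-1213641, minus strand, last 30 bases): aatatctttcatttcgCTAACgctttttAG
rds1 antisense (1:1668819-1668848, minus strand, last 30 bases): gaacaggagggCTAACcaaatgtaaggcAG
SPAC4H3.01 antisense (1:3822562-3822591, plus strand, last 30 bases): atattaacgacttaaatcataaaagtttAG
SPNCRNA.477 (3:950489-950687, minus strand, whole): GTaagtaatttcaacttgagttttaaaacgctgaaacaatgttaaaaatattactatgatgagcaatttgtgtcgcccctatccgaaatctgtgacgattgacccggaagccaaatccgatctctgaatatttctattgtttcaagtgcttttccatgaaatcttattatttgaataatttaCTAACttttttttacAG
SPNCRNA.1042 (1:5011214-5011400, minus strand, whole): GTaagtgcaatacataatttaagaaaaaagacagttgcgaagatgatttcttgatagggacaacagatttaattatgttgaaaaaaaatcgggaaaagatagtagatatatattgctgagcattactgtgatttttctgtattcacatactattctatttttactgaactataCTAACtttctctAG
SPNCRNA.1366 (2:521001-521140, minus strand, whole): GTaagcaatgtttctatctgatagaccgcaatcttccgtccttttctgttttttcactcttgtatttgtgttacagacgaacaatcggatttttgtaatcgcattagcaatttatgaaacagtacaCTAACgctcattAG
SPNCRNA.1508 intron 1 (2:2381909-2381938, minus strand, last 30 bases): gaccttcaataCTAACaccactctttttAG
SPNCRNA.1693 intron 1 (2:4436016-4436143, plus strand, whole): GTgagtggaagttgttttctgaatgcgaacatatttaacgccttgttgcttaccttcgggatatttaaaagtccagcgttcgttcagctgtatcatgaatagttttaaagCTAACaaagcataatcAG
SPNCRNA.893 intron 1 (1:3178669-3178854, plus strand, whole): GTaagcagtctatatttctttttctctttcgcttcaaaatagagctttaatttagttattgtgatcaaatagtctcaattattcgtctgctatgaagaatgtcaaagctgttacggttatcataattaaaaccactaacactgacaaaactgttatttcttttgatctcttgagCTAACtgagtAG

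Of these 9, all but the SPAC4H3.01 intron carried a CTAAC close to the 3′ end. The SPCC550.12, SPNCRNA.477 and SPNCRNA.1042 introns also shared the start GTAAGT, as did the SPAC4H3.01 intron.

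Most non-coding introns had few reads, and a handful had many. The unit is reads per intron peak, as the authors deposited them and not corrected for length. The 91 introns held 138991 reads, with a median of 98 (quartiles 60 and 176) and a range of 9 to 49228. By class the medians were 94.5 for antisense introns, 115 for added ncRNA introns and 56 for annotated SPNCRNA introns. The 95% order-statistic intervals of those medians were 68 to 117, 68 to 177 and 18 to 1336, so the classes were not separated. For comparison, the 1281 other annotated introns had a median of 446 (quartiles 53 and 2967) and the 142 other added introns a median of 128.5. The annotated counts begin at 5 reads and the added ones at 50. At 50 reads or more the medians were 103 for 87 non-coding introns and 1195 for 971 other annotated introns. At least 1000 reads were found for 9 of the 91 introns, against 15 of the 142 other added and 508 of the 1281 other annotated introns. That is 9.89% (Wilson 95% interval 5.29 to 17.7), against 10.6% (6.51 to 16.7) and 39.7% (37.0 to 42.4), so the non-coding introns lay close to the other added ones. The 39.7% is a share that also counts annotated introns below 50 reads. The 2 highest introns held 69.3% of the reads of the 91, and the 5 highest held 85.6%. The 80 added non-coding introns, of 222 added introns in all, took 15.0% of the reads over all added introns. That became 69.1% when the added introns of snoRNA classes were left out of the total. Both of the 2 highest introns are among these 80. The median was 104 reads for the 80, against 119 for the 133 other added introns outside snoRNA classes. The 11 annotated non-coding introns took 0.0522% of the reads over all 1292 annotated introns. Poisson intervals cover counting error only, and PCR copies are not independent molecules. Intervals of medians and of shares of introns reflect how many introns there were and how they differed.

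**Figure D1:**
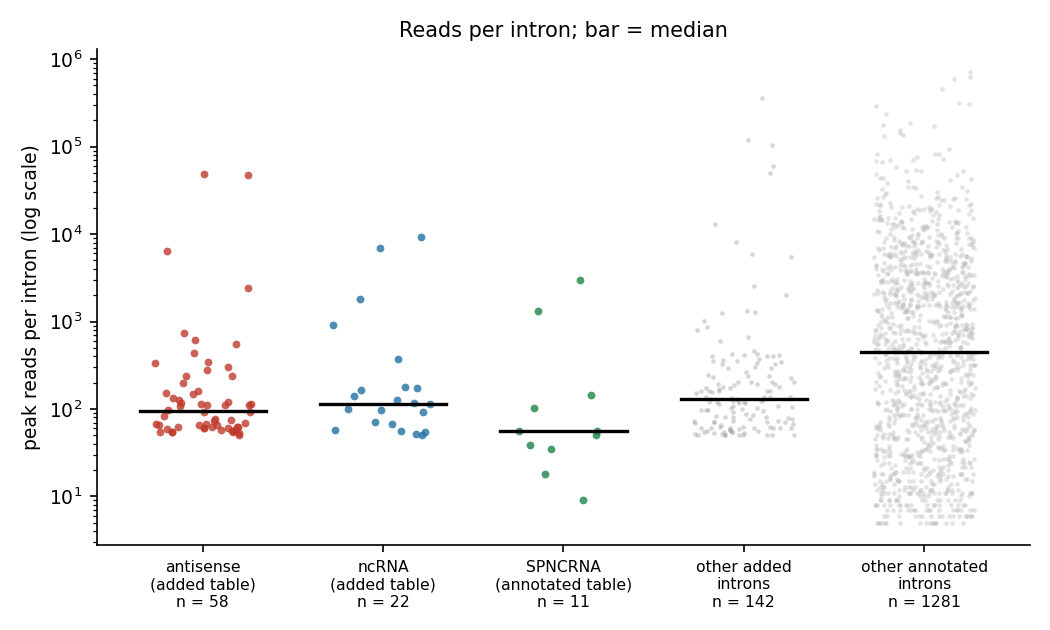
Reads per intron peak (log axis) for the 3 classes of non-coding intron, left, and for the other added and other annotated introns, right. Each point is 1 intron and each bar the class median; the 2 antisense introns with 49228 and 47060 reads stand far above the antisense median of 94.5.

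Among antisense introns, those labelled SPCC550.12 and rds1 stood far above the rest. The first had 49228 reads (exact Poisson 95% interval 48794 to 49665), a count that 30 of the 1292 annotated introns exceeded. Its label is the locus of arp6, which encodes an actin-like protein of the Swr1 chromatin remodelling complex. It ran over 158 nt of chromosome 3, minus strand, from 1213612 to 1213769, of which 48 nt lay over the 3′ UTR of arp6, and on its own strand the reference non-coding RNA SPNCRNA.7266 held the whole intron. The rds1 intron had 47060 reads (46636 to 47487), and 32 annotated introns had more. All of its 112 nt (chromosome 1, minus strand, 1668819 to 1668930) lay opposite the coding sequence of rds1, a gene known to respond to stress and nutrients. On its own strand the reference annotation places the mRNA of SPAC343.20 there, with no coding base, so in that annotation it is also an untranslated part of a protein-coding gene. Its AT content was 48.2%, against a median of 66.5% for antisense introns.

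The next antisense introns were much lower. The SPAC4H3.01 intron, at a gene for a DNAJ-domain protein, had 6466 reads and the SPAC7D4.08 intron, over the 3′ UTR of a gene for an uncharacterised protein, had 2418. An intron labelled SPBP8B7.05c had 732 reads and lay 622 nt upstream of that gene, nce103, which encodes a putative carbonic anhydrase. The sixth, with 623 reads, lay wholly over the coding sequence of prp22, the helicase that releases spliced mRNA from the spliceosome. At the low end, close to the added table's minimum of 50 reads, were introns opposite elp2 (Elongator subunit, 50 reads), chs1 (chitin synthase, 53) and cfh2 (a chitin synthase regulatory factor, 54). The longest antisense intron, 198 nt at SPBC530.11c, had 57 reads, and the shortest, 72 nt at SPCC4B3.05c (hem12, of haem synthesis), had 68.

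Most antisense introns lay over a protein-coding transcript on the other strand. The authors' class and gene label largely fix this in advance, so the counts describe placement and not a tendency of these introns. In the reference annotation 42 of the 58 lay wholly inside the labelled gene on the other strand, 7 lay partly inside and 7 lay 40 to 622 nt outside it. The remaining 2 lay on the same strand as the labelled gene. One of these was the SPAC4H3.01 intron, in an untranslated part of that gene's own mRNA. The other had 70 reads and lay at the gene of the signal recognition particle receptor alpha subunit, with its strand written with a question mark. An mRNA of the other strand overlapped 49 of the 58: 23 introns lay over coding sequence only, 4 over coding sequence and UTR, 16 over 3′ UTR and 6 over 5′ UTR. Any coding base was overlapped by 27 of 58, or 46.6% (Wilson 95% interval 34.3 to 59.2). Across the places the median reads were 74 over coding sequence only, 101 over 3′ UTR, 175.5 over 5′ UTR, and 119 for the 9 with no opposite mRNA, with ranges that overlapped widely. The median AT content was 63.6% over coding sequence only and 69.7% over 3′ UTR.

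Counting the SPNCRNA introns too, 55 non-coding introns lay over an mRNA of the other strand, and none of the 91 overlapped an annotated intron of it. With each such mRNA divided into 3 equal parts, 26 intron midpoints fell in the part at the 3′ end, 11 in the middle and 14 in the part at the 5′ end. Of the other 4, 2 lay just beyond the 3′ end and 2 just before the 5′ end. Of these 55, 34 lay opposite a gene with no intron in the reference, 12 opposite a gene whose introns were not listed, and 9 opposite a gene with a listed intron of its own. In 7 of those 9 pairs the highest listed intron of the protein-coding gene had more reads than the non-coding intron opposite. The ratio ran from 0.0789 to 247, with a median of 11.1. Other annotated introns also had more reads without any pairing, with a median of 446 against 98 for the 91. No such count was made with the highest intron of genes outside the pairs, so the 7 of 9 is not shown to be a trait of the pairs. The widest gap was at SPBC530.11c, which encodes a transcription factor: the antisense intron had 57 reads and the gene's own intron 14092. At utp23, an rRNA-processing gene, SPNCRNA.1250 had 103 reads and the highest of the gene's own introns 3093. The order was turned round at ast1, a gene of the XP-G nuclease family, with 304 antisense reads against 24, and at pgs1, of phosphatidylglycerol synthesis, with 110 against 18. These 9 pairs are those in which both sides passed the tables' minimums, and the introns of a pair differ in length.

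**Figure D2:**
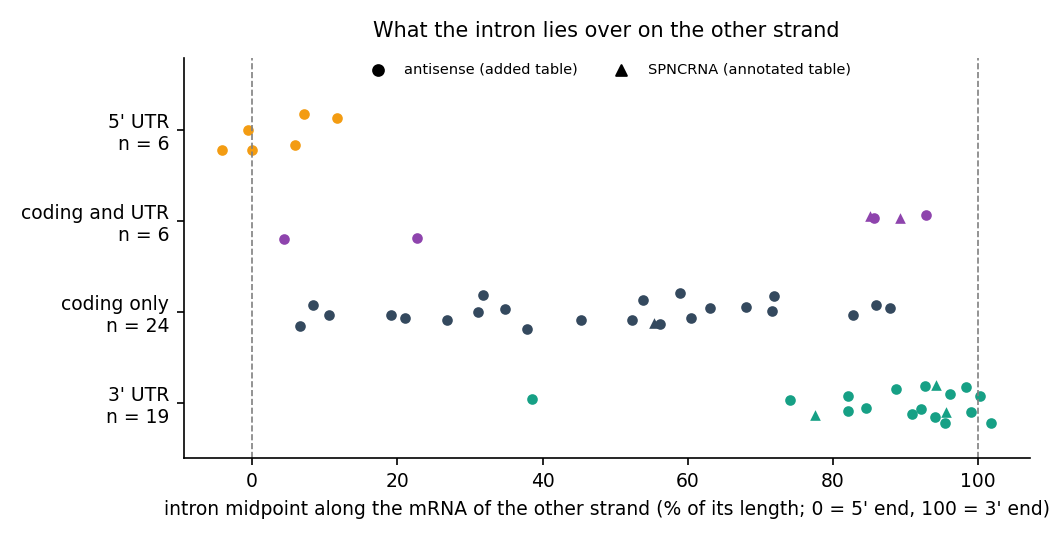
Position of the midpoint of each of the 55 non-coding introns that lie over an mRNA of the other strand, as a percentage of that mRNA's length from its 5′ end, in rows by what the intron lies over. Circles are antisense introns and triangles annotated SPNCRNA introns; coding-only introns spread along the whole mRNA, while those over 3′ UTRs, 19 in all, sit mostly near its 3′ end.

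At hrq1, which encodes a RecQ-type DNA helicase, introns were listed on both strands over the same bases, the only such pair in the 2 tables. The antisense intron (plus strand, 4116824 to 4117010, 187 nt) and an added in-frame coding intron labelled SPAC23A1.19c (minus strand, 4116870 to 4116992, 123 nt) had 61 reads each. The shorter lies wholly within the longer, and whether the equal counts are the same reads counted for both strands was not tested. The antisense sequence, shown because none of the 4 branch motifs is in its last 40 nt and it ends in AAG, was chosen after its values were seen, as was the receptor gene above.

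hrq1 antisense (1:4116824-4117010, plus strand, whole): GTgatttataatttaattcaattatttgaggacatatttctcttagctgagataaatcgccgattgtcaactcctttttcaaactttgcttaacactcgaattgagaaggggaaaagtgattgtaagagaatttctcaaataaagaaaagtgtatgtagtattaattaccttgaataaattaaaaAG

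The 22 added ncRNA introns were led by SPNCRNA.477 with 9336 reads (9148 to 9527), SPNCRNA.1042 with 6925 and SPNCRNA.1366 with 1821. The annotation gives no function for SPNCRNA.477 and SPNCRNA.1042. It has no RNA named SPNCRNA.1366, and no transcript on the strand of that intron. SPNCRNA.1358 had 902 reads and, at 99 nt, the shortest intron of the class. SPNCRNA.1617 had 378 reads, in an intron that lay 520 nt downstream of the RNA it is labelled with. No ncRNA intron overlapped an mRNA on either strand, which the authors' split into classes may also fix in advance. On the other strand 14 of the 22 had a non-coding RNA, in 12 of them an RNA other than the labelled one. Inside the labelled RNA, on its strand, lay 16 introns. In 2 cases, SPNCRNA.477 and SPNCRNA.279, the intron lay on the other strand of the RNA it is labelled with, so the most read ncRNA intron is antisense to its labelled RNA in this annotation. SPNCRNA.279 was also the lowest, with 50 reads, before SPNCRNA.765 with 52 and SPNCRNA.1667 with 55.

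A pair of ncRNAs, SPNCRNA.920 and SPNCRNA.831, had 2 introns each. The reference annotation calls both a possible alternative UTR. It does the same for SPNCRNA.1297, SPNCRNA.765, SPNCRNA.1633, SPNCRNA.992, SPNCRNA.1597 and SPNCRNA.1062. SPNCRNA.920 had 177 reads (152 to 205) in an intron of 128 nt and 127 (106 to 151) in one of 147 nt. SPNCRNA.831 had 98 (79.6 to 119) in its intron of 206 nt, the longest of all 91, and 93 (75.1 to 114) in one of 162 nt. The intervals of the SPNCRNA.831 introns overlapped, and those of the SPNCRNA.920 introns only just did not. An ncRNA intron with no label, on chromosome 3 (minus strand, 1934138 to 1934251, 114 nt), had 117 reads.

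The 11 annotated SPNCRNA introns spanned 9 to 3006 reads. Intron 1 of SPNCRNA.1508 had 3006 reads (2899 to 3115) in 184 nt, opposite the end of the coding sequence and the 3′ UTR of iws1, a transcription elongation factor. SPNCRNA.1693 had 1336 reads (1265 to 1410) in 128 nt, opposite another non-coding RNA, SPNCRNA.1694. All others had at most 145 reads, the value of SPNCRNA.893, whose intron was the longest of the class at 186 nt. The name SPNCRNA.893 is not in the reference annotation, where SPNCRNA.219 overlaps this intron on its own strand. SPNCRNA.1250 followed with 103 reads, then SPNCRNA.1633 and SPNCRNA.992 with 56 each, opposite abh1, which encodes a dioxygenase, and grp1, a GRIP-domain protein gene. The 3 lowest were intron 2 of SPNCRNA.704 with 35 reads, SPNCRNA.1062 with 18 (10.7 to 28.4), over the 3′ UTR of the DASH complex gene dad3, and SPNCRNA.627 with 9 (4.12 to 17.1). The last had the shortest intron of the 91, 59 nt. An mRNA of the other strand overlapped 6 of the 11. None of the 11 was in the authors' table of branch points, which covers 817 introns, against 1292 distinct annotated introns. No SPNCRNA name was among the 817, those of the snoRNA hosts included, so the absence is not particular to these 11.

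Known and added non-coding introns were then set side by side. The 80 added introns had a median of 104 reads and the 11 annotated ones 56, a difference in median log10 reads of 0.269 (added minus annotated; 95% interval -1.12 to 0.765). The added table begins at 50 reads and the annotated one at 5, and at 50 reads or more the medians were 104 for the added and 103 for the 7 annotated introns left, a difference of 0.00387. With the introns of the small nucleolar RNA hosts put back, the difference turned to -0.0704, so no direction can be given. Non-coding introns are scarce in the reference annotation: of 7133 long non-coding RNAs 4 had an intron, including ter1, the telomerase RNA, and none of these 4 introns, 7 to 70 nt long, was listed in either table. Of the 80 added introns, 0 equalled a reference intron (Wilson 95% upper limit 4.58%), also when 1 equal end was enough. With so few non-coding introns in the reference, this was largely fixed in advance. Of the 11 annotated ones 1 equalled a reference intron, so the match did not separate known from added introns. It was the SPNCRNA.1597 intron, with 39 reads, which equals an intron between coding parts of ina17, a mitochondrial ATP synthase assembly factor. It lies 235 nt upstream of the RNA it is labelled with. This intron was named after its values were seen.

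On their own strand, 71 of the 91 introns overlapped a reference non-coding RNA, which held the whole intron in 59. An mRNA of the same strand was overlapped by 4, the introns labelled rds1, SPAC4H3.01 and SPNCRNA.1597 and the one at the signal recognition particle receptor gene. No reference transcript of the same strand was found for 16. The nearest one upstream of these ended 6 to 4751 nt away, and for the SPNCRNA.477 intron it was the mRNA of trm8, 38 nt away. By class, a same-strand non-coding RNA was found for 42 of 58 antisense introns, 19 of 22 ncRNA introns and 10 of 11 SPNCRNA introns. The same share was not computed for other introns, and the reference holds 7133 long non-coding RNAs. These counts therefore describe placement only.

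Lengths fell in a narrow range. The 91 introns had a median length of 140 nt (59 to 206), and 87 lay within 80 to 200 nt, or 95.6%, against 95.8% of other added and 79.4% of other annotated introns. By class the medians were 142 nt for antisense, 146 nt for ncRNA and 108 nt for SPNCRNA introns, against 135 nt for other added and 119 nt for other annotated introns. The part played by the size range that the gel recovers was not tested. Reads and length were hardly related across the 91 introns (Pearson's r 0.17 on log10 values, Spearman's rho 0.09, a description over introns of 1 library). Across the 11 SPNCRNA introns r was 0.72 and rho 0.69, while across the 58 antisense introns they were -0.03 and -0.13 and across the 22 ncRNA introns 0.20 and -0.11.

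**Figure D3:**
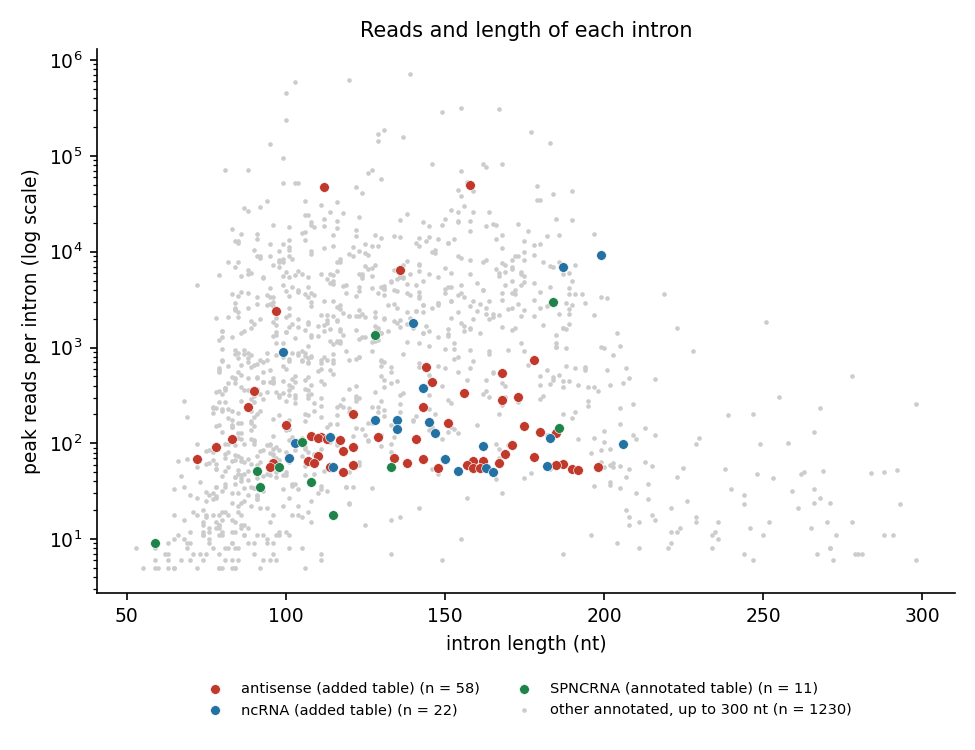
Reads per intron peak (log axis) against intron length in nt. Coloured points are the 91 non-coding introns by class and grey points the other annotated introns of up to 300 nt; the non-coding introns lie mostly low in the cloud, and 87 of 91 lie between 80 and 200 nt.

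At the 5′ splice site the most frequent start was as common in non-coding introns as in annotated ones within the intervals, and the next was rarer. GTAAGT opened 34 of 91, or 37.4% (Wilson 95% interval 28.1 to 47.6), against 37.3% (34.7 to 40.0) of other annotated introns and 23.9% (17.7 to 31.6) of other added introns. GTATGT opened 12.1% (6.89 to 20.4), against 24.5% (22.2 to 26.9) of other annotated and 14.1% (9.31 to 20.8) of other added introns. At the 3′ end, TAG closed 60.4% (50.2 to 69.9) of the non-coding introns, against 57.0% (48.8 to 64.9) of other added and 72.6% (70.1 to 75.0) of other annotated introns. AAG closed 17.6% (11.1 to 26.7), against 14.1% (9.31 to 20.8) of other added and 8.98% (7.53 to 10.7) of other annotated introns. At this end the intervals of the non-coding and the other added introns overlapped.

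A branch motif was less frequent near the 3′ end of non-coding introns. The 4 forms of the motif named above were sought in the last 40 nt of the intron's own strand. One was present in 50 of 91, or 54.9% (44.7 to 64.8), against 73.9% (66.2 to 80.5) of other added and 81.7% (79.5 to 83.8) of other annotated introns, and in 10.8% of all genome windows of 40 nt that end in AG. The classes had 31 of 58 (antisense), 12 of 22 (ncRNA) and 7 of 11 (SPNCRNA). Among introns of 80 to 200 nt with 50 to 200 reads the shares were 48.4% (36.4 to 60.6; 30 of 62) for non-coding and 78.4% (71.1 to 84.2; 116 of 148) for other annotated introns. The motif was found in 16 of the 20 non-coding introns with most reads, in 21 of the 47 between, and in 13 of the 24 with at most 60 reads, so the share did not fall steadily with reads. The median reads were 111.5 with a motif and 71 without. Where present, it lay a median of 12.5 nt before the intron's 3′ end (quartiles 9 and 15), against 10 nt (9 and 13) in other annotated introns. A match is a description and not a mapped branch point, and no match says only that these letters are not in the window. A non-coding intron with a motif, opposite prp22, is shown because it carries the CTAAT form; it was chosen for print after its values were seen.

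prp22 antisense (1:1208133-1208276, plus strand, whole): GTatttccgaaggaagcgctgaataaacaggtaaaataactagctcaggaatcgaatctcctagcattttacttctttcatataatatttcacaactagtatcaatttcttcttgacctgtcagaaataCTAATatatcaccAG

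**Figure D4:**
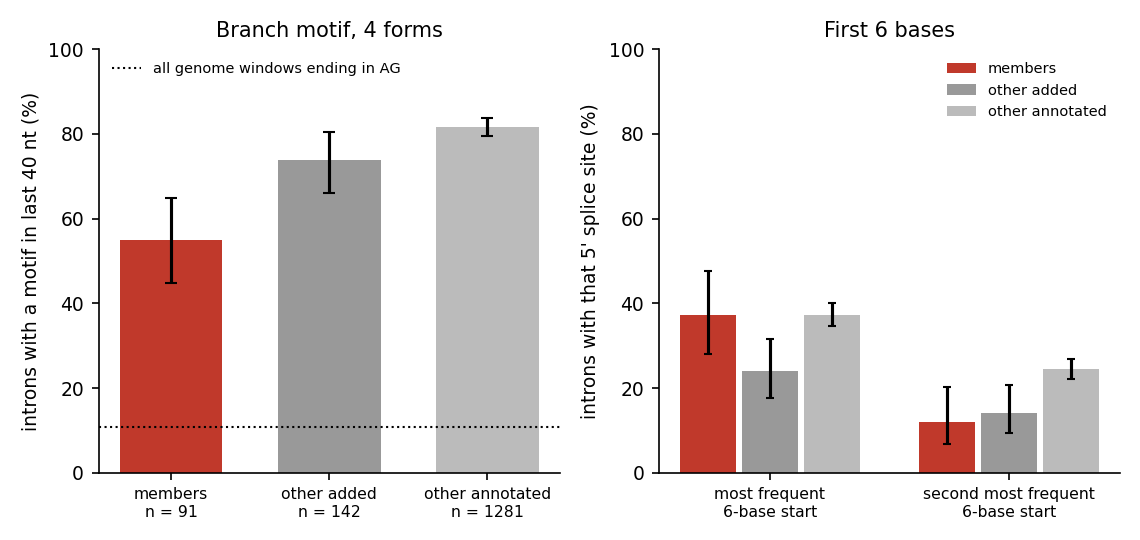
Share of introns (%) with 1 of the 4 branch motifs in their last 40 nt, left, and with the most and second most frequent 6-base start, right, for non-coding (members, n = 91), other added and other annotated introns. Bars are shares, error bars Wilson 95% intervals and the dotted line the 10.8% of all genome windows of the same length that end in AG; the non-coding share of 54.9% lies below both other sets on the left.

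Genes on the other strand were also looked up in lists by name. Meiosis and mating genes were opposite 2 introns, at mcp3 with 114 reads and mug124 with 63, a median of 88.5 against 98 for all 91. The words transporter, permease or transmembrane in the product text placed 4 introns opposite transporter genes, with a median of 162.5. These lay at SPAC24H6.11c (vsb1) with 349 reads, SPAC227.03c (yea6) with 241, SPAC521.04c (sst1) with 84, and, from SPNCRNA.704, oac1 with 35. The words missed ght5, a glucose and fructose symporter gene with a coding antisense intron of 112 reads, which would make 5 introns with a median of 112. The stress list held rds1 alone. The symbols chosen for wtf or transposon genes and for metal or phosphate genes matched 0 introns, though an antisense intron with 63 reads lay over the 5′ UTR of cuf1, the copper-sensing transcription factor, whose symbol was not on the list. Lists this small say nothing beyond the single counts. Of 63 named non-coding RNAs looked up, among them the telomerase RNA ter1, the meiotic RNA sme2 and the RNase P RNA, 0 had a listed intron on their strand. One on the other strand was found for 1, prl45, the alr1 antisense intron with 282 reads. In all, 71 of the 91 introns overlapped a same-strand RNA among 7133 reference long non-coding RNAs. The 0 of 63 is therefore no result about the named RNAs.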

How the data were processed

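Lariat-derived circular RNA of delta-dbr1 cells was measured in 2 libraries, of which the short run was used. The deposited tables hold raw read counts for each intron peak, per the file headers, with strand, position and length. Bowtie 0.12.3 and SAMtools are named in the submitters' processing notes. No source used here gives their roles, the peak definition, the filters, the annotation or the build. The lowest deposited counts were 5 (annotated) and 50 (added). Summed reads over listed introns were 9296300 and 895323, which are not library depths.

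The 1314 annotated lines were reduced to 1292 distinct ones. Introns were placed on ASM294v3 and its RefSeq annotation with Python 3.11.15, numpy 2.4.6, scipy 1.17.1 and matplotlib 3.10.9. A label was found in the annotation for 88 of 91 introns. Counts carry exact Poisson intervals, shares Wilson intervals and medians order-statistic intervals, all at 95%. No test was run, because there is 1 library. The search for motifs and the interval of the median were tested on simulated data, and the placement on the annotation was not. Lists of opposite genes were matched by gene name or product text.

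In each class the text names the 6 introns with most reads, the 3 with fewest, the longest and the shortest, RNAs with 2 or more introns, and introns opposite a listed gene. Other introns named were chosen after their values were seen. Members and lists were chosen with earlier results of these data known. Alternatives changed length range, read minimum, repeated labels, motif window and forms, required overlap and the snoRNA hosts.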

Additional observations from a re-analysis of the deposited data

Results flagged for a closer look

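The authors' added table holds 1 intron marked as unclassified and possibly antisense, which was not among the 91. It had 352 reads (exact Poisson 95% interval 316 to 391), more than the antisense median of 94.5. It covers 92 nt of chromosome 2, minus strand, from 2007734 to 2007825, starts with GTACGC and ends with TAG. The reference annotation has SPNCRNA.5447 on the same strand and no transcript on the other strand. None of the 4 branch motifs was in its last 40 nt. It is given because no comparison above uses it. Every added intron had at least 50 reads, so its presence above a limit of 3 reads was fixed by the table.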

How the results depend on the processing

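Of 40 alternative values for 14 results, 36 stayed within the interval of the value reported, 3 moved and 1 reversed. Many of the 36 were taken over the same introns and could not change, so their number does not measure stability. For antisense introns the read minimum, repeated labels, repeated lines and single-copy sequence all left the same 58. The difference in median log10 reads between added and annotated non-coding introns turned to -0.0704 when the introns of the snoRNA hosts were kept, where the reported value was 0.269. This follows from the annotated median, which was 124 with them and 56 without. With CTAAC and CTAAT alone, the branch motif share fell to 44.0% (34.2 to 54.2). The same search gave 62.7% (54.5 to 70.2) of other added and 75.0% (72.6 to 77.3) of other annotated introns. Without the 2 highest introns, an alternative chosen after seeing the data, the 5 highest held 65.9% of the reads. Leaving added introns of snoRNA classes out of the total, also chosen later, took the share of added reads to 69.1%, against 15.0%. Reads of the annotated SPNCRNA introns were too few in number, 11 introns, to fix their median: it was 103 at 50 reads or more. The alternative without the 2 same-strand antisense introns, also chosen after seeing the data, gave a coding overlap of 48.2% and left the median at 94.5. No paired analysis was possible because there is 1 library per gel run.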
